A study of Homo sapiens with 8 samples.

Results

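The genes described here are 43 that encode proteins of the large ribosomal subunit. They were chosen by gene symbol alone, with no measured value in the rule, and all 43 were found among the 19124 genes of the deposited tables. RPL5 and RPL11, which also encode large subunit proteins, were kept apart from them. Messenger RNA was sequenced from HCT116 and HT29, established human colorectal cancer lines grown in RPMI medium. Each line received 1 of 4 siRNAs at 15 nM by lipofection, namely a negative control siRNA (NC) or an siRNA against RPL9, RPL17 or RPL27, and total RNA was taken after 48 h. That gives 8 libraries, 1 for each line and siRNA, and the NC cells were transfected as well. Each line is 1 cell line, HCT116 with wild-type and HT29 with mutant p53. The labels name 1 siRNA per gene and no sequence for it, so an effect of losing the target and an effect of the siRNA itself cannot be told apart.

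The large subunit joins amino acids at its peptidyl transferase centre, passes the new chain through an exit tunnel, and recruits the elongation factors through a flexible stalk. Most of its proteins are needed in equal amounts, and lack of a single protein can keep the subunit from being finished. Most of their messages carry a 5′ terminal oligopyrimidine (TOP) tract, a run of C and T that begins with C at the first transcribed base and lets growth signals set their translation together. Some ribosomal proteins also act on their own messages. RPL3, RPL10A and RPL12 are known for a splicing switch that sends part of the transcript to nonsense-mediated decay. In cancer cells with wild-type p53, free ribosomal proteins such as RPL5, RPL11 and RPL23 bind MDM2 and stabilise p53.

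The start sites of the 3 targeted genes and of the genes on which the results below turn are shown first, because they show how far the TOP tract is a shared feature of these messages. The sequences are from RefSeq (GRCh38.p14) and run from 15 bases before to 15 bases after the 5′ end of the annotated transcript, with each run of at least 5 C or T in capitals. RPL9 lies at chr4:39458908-39458937 on the minus strand, RPL17 at chr18:49492451-49492480 (minus), RPL27 at chr17:42998404-42998433 (plus), RPL3 at chr22:39319609-39319638 (minus), RPL10A at chr6:35468386-35468415 (plus), RPL12 at chr9:127451392-127451421 (minus), RPL35 at chr9:124861943-124861972 (minus) and RPL26 at chr17:8383179-8383208 (minus).
RPL9: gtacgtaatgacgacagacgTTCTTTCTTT
RPL17: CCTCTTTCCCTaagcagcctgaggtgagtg
RPL27: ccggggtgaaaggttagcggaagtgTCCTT
RPL3: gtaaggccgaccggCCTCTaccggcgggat
RPL10A: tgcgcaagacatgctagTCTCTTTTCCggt
RPL12: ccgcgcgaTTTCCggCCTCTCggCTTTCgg
RPL35: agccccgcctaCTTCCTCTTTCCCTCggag
RPL26: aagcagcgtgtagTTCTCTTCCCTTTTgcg
All 8 windows hold such a run, which is a looser rule than a TOP tract. How many windows of other genes hold a run at any place was not counted. In RPL9, RPL17, RPL27 and RPL10A it does not cover the annotated first base. In RPL3, RPL26 and RPL35 it begins before that base, by 1 base in RPL3, and in RPL12 a run begins at that base. Of the 43 genes, 37 are in the RefSeq table, with 48 annotated starts. In 27 of these 37 (73.0%) a run of at least 5 C or T begins with C at an annotated first base, against 5.14% of the 27305 genes in the table and 19 of 25 small subunit genes (76%). Read in the direction of transcription, the letters CTTTCC were found in the window of 12 of the 37 (32.4%) and of 1.98% of all genes. The reverse complement GGAAAG was found in 1 of the 37 (2.70%) and in 1.48% of all genes.

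The unit is RPKM, reads scaled to transcript length and to the library's mapped reads, with 1 value per gene and library. Read totals are not known from RPKM and were not estimated, so no counting interval is given. The 43 genes together made up 7.02% to 7.77% of all RPKM in the 4 HCT116 libraries and 7.36% to 7.92% in the 3 RPL siRNA libraries of HT29, but 13.1% in the NC library of HT29. That library stands apart: over 14180 genes its deviation from the mean of the 8 libraries had a rank correlation of -0.53 with transcript length, a description across genes, against 0.12 to 0.23 in the other 7. Short transcripts read high in it, and large subunit messages are short. Every value against NC in HT29 is therefore given beside one that does not use it. Of 9 colorectal epithelial markers, the keratins KRT8, KRT18 and KRT19 were at 3461 RPKM or more in every library. EPCAM was at 2248 to 4431 and CDH1 at 268 to 1180. VIL1, an intestinal brush border gene, was at most 2.89 in HCT116 and 358 to 475 in HT29. The others were low in both lines, with CDX2 at 8.04 to 18.8, CDH17 at 0.449 to 8.28 and GPA33 at 0 to 5.54. Of 6 fibroblast markers, DCN and LUM were below 1 RPKM in all libraries, and the summed 352 to 426 (HCT116) and 257 to 438 RPKM (HT29) were nearly all COL1A1. The 4 endothelial markers summed to at most 10.1, with PECAM1 and CDH5 below 1 throughout. The 6 leukocyte markers summed to 87.3 to 140 in HCT116 and 1939 to 3062 in HT29, where LYZ made up 1844 to 3002 and the defining PTPRC was at most 1.87. The part of these cell types in the results was not tested. Ribosomal protein genes have many processed pseudogenes, and the sources used here do not say how reads that match several places were assigned, so levels are not compared between genes. In RNA from whole cultures, fewer cells of a kind and less RNA per cell cannot be told apart.

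Each targeted message was lowest in the library with its own siRNA, in both lines. RPL9, which sits near the base of the stalk, was at 5560 RPKM in HCT116 under RPL9 siRNA, against 17432 under NC, 18619 under RPL17 siRNA and 18823 under RPL27 siRNA. In HT29 the RPL9 values were 5245 under its own siRNA and 35729, 17619 and 17546 under NC, RPL17 and RPL27 siRNA. RPL17, a protein that lines the exit tunnel, was at 10004 in HCT116 and 8240 in HT29 under its siRNA, against 25956 to 31298 and 27912 to 43950 in the other libraries. RPL27, a surface protein of the subunit, was at 2045 and 2214 under RPL27 siRNA. As a share of the mean of the other RPL siRNA libraries of the line, RPL9 had 29.7% (HCT116) and 29.8% (HT29), and RPL17 had 34.1% and 29.1%. The own-siRNA values of all 3 genes lie below every other library. The read-through gene RPL17-C18orf32 was listed at 75.2% to 76.9% of RPL17 in every library, and the 2 entries overlap, so their reads cannot be told apart.

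Against NC, most large subunit messages were higher in HCT116, and in HT29 all 43 were lower under all 3 RPL siRNAs, where 32.7% of all tested genes were. In HCT116, 35, 34 and 36 of the 43 were higher under RPL9, RPL17 and RPL27 siRNA, with a median log2 difference of 0.17, 0.16 and 0.24, where the medians of all 14281 tested genes lay between -0.00 and 0.02. In HT29 the 43 had medians of -0.73, -1.02 and -0.90 while all tested genes had 0.17, 0.20 and 0.19. Transcript length moves with the HT29 values. For 961 other genes of 600 to 1000 nt, the middle part of the 43 genes' lengths by quartiles (their whole range is 401 nt for RPL39 to 2316.5 nt for RPL4), the HT29 medians were -0.61, -0.62 and -0.66, and the HCT116 medians 0.11, 0.08 and 0.07. After removal of the length trend the median of the 43, averaged over the 3 siRNAs, was -0.33 in HT29 in place of -0.88 and 0.08 in HCT116 in place of 0.19. The 3 comparisons of a line share its single NC library and are not independent of each other.

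**Figure D1:**
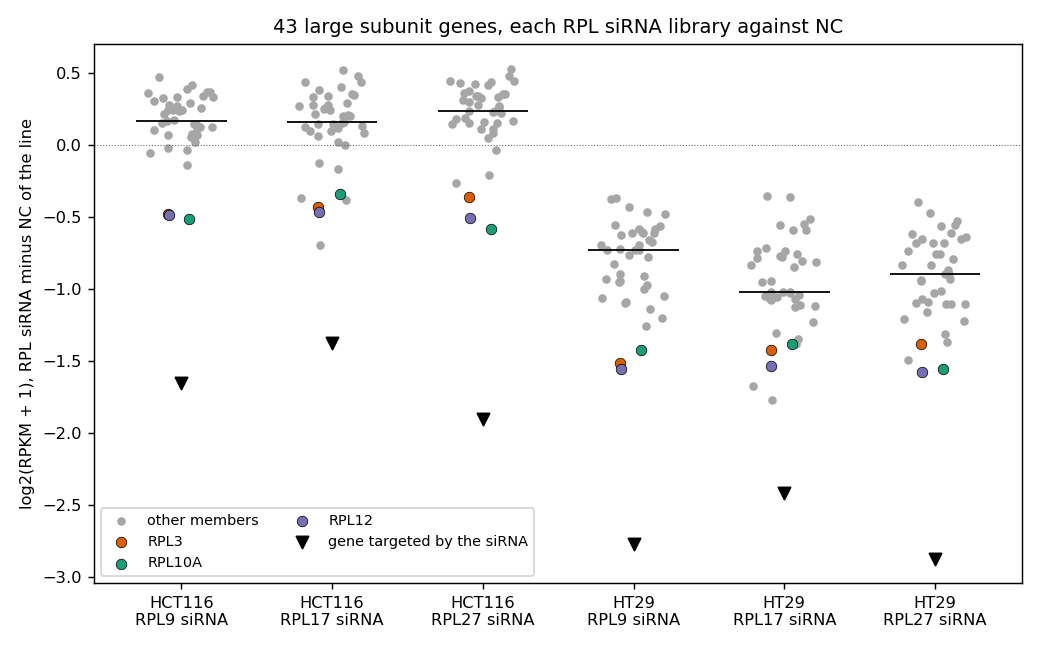
Log2 difference from the NC library of the same line (vertical axis, log2 of RPKM + 1) for each of the 43 genes in each of the 6 RPL siRNA libraries. Points are genes, the horizontal bar is the median of the 43, black triangles are the targeted gene, and the coloured points are RPL3, RPL10A and RPL12. The HCT116 medians lie at 0.16 to 0.24 and the HT29 medians at -1.02 to -0.73, with the 3 coloured genes well below the median in every library.

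**Figure D2:**
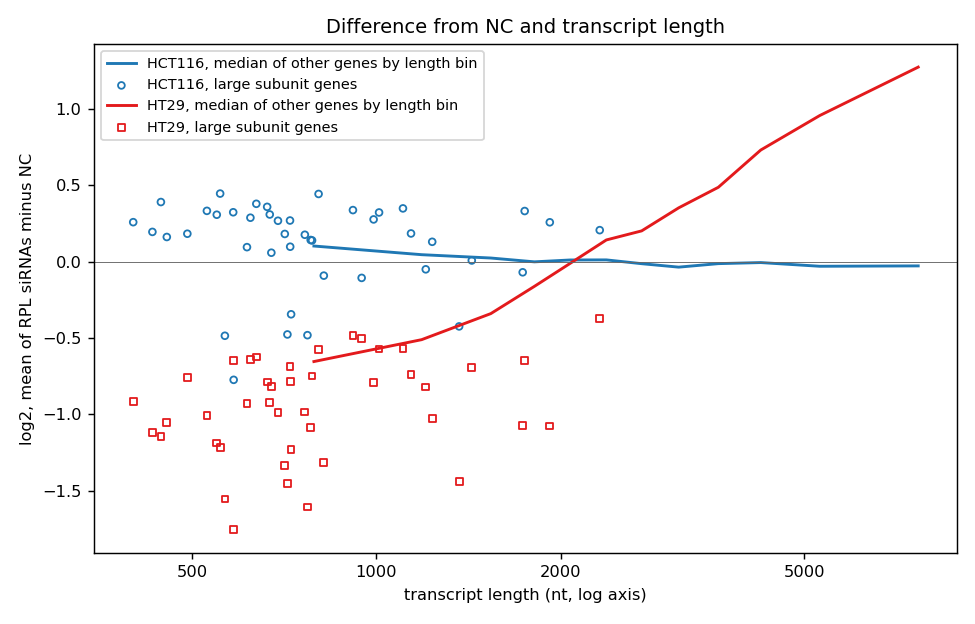
Mean log2 difference of the 3 RPL siRNA libraries from NC (vertical axis) against transcript length (horizontal log axis, nt), by line. Open symbols are the 43 large subunit genes and lines are medians of the other tested genes in 12 length bins. In HT29 the line runs from -0.65 in the bin with a median of 791 nt to 1.27 at 7670 nt, and in HCT116 from 0.10 to -0.03.

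With the 2 lines as the only replicates, none of the 43 passed limma's test of the 3 RPL siRNAs together against NC at an adjusted p under 0.05 over all 14281 genes. Of all genes, 24 passed (0.168%), and at an unadjusted p under 0.05 there were 7 of the 43 (16.3%) and 3506 of all genes (24.6%). The counts for RPL9, RPL17 and RPL27 siRNA alone were also 0 of 43, with 1, 2 and 0 of all genes called (0.007%, 0.014% and 0%), and with 4, 8 and 5 of the 43 at an unadjusted p under 0.05 (9.3%, 18.6% and 11.6%, where 20.4%, 15.7% and 16.7% of all genes were). The targeted genes themselves missed the threshold in these fits. RPL9 differed by -2.21 (SE 0.31, limma adjusted p = 0.0986), RPL17 by -1.90 (SE 0.26, adjusted p = 0.188) and RPL27 by -2.39 (SE 0.28, adjusted p = 0.09995). Nothing in the labels says that cultures were separate, no siRNA was repeated within a line, and these p-values measure only the spread between these libraries.

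RPL3, RPL10A and RPL12 were lower than NC in all 6 RPL siRNA libraries. They are the only 3 of the 43 for which that holds, and 13% of all tested genes were lower in all 6, so the share of the 43 is below the background. RPL3, which reaches towards the peptidyl transferase centre, was at 19106 RPKM under NC and at 13719, 14163 and 14880 under RPL9, RPL17 and RPL27 siRNA in HCT116. In HT29 RPL3 was at 36859 under NC and at 12897, 13774 and 14178. The RPL siRNA libraries of the 2 lines overlap, between 12897 and 14880, and all lie below both NC libraries.

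RPL10A, part of the stalk on the tRNA exit side, was at 6876 under NC and at 4829, 5449 and 4590 under the RPL siRNAs in HCT116, and at 13972, 5209, 5357 and 4751 in HT29. RPL12, which binds the base of the elongation factor stalk, was at 20006, 14271, 14536 and 14087 in HCT116 and at 39973, 13634, 13821 and 13408 in HT29. For RPL10A the RPL siRNA libraries of the 2 lines overlap, for RPL12 those of HCT116 are slightly above those of HT29, and for both genes the NC libraries are above all of them. In HCT116 the 3 genes stood at 71.8% to 77.9% (RPL3), 66.8% to 79.2% (RPL10A) and 70.4% to 72.7% (RPL12) of NC, in the same libraries in which the median of the 43 was above NC. Ranked from the lowest of the 43, they took places 2 to 7 in every RPL siRNA library, with the targeted gene in place 1. Each siRNA against the mean of the other 2 gave RPL12 differences of -0.00, 0.03 and -0.03 for RPL9, RPL17 and RPL27 siRNA (SE 0.03). RPL3 had -0.10, 0.01 and 0.09 (SE 0.03) and RPL10A -0.00, 0.16 and -0.16 (SE 0.05), none of them past the threshold (limma adjusted p from 0.159 to 0.991).

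Averaged over both lines and the 3 siRNAs, RPL12 differed from NC by -1.02 (SE 0.24, limma adjusted p = 0.107), RPL10A by -0.97 (SE 0.23, adjusted p = 0.107) and RPL3 by -0.93 (SE 0.23, adjusted p = 0.111), none past the threshold. With the length trend removed from each library the 3 differences were -0.74 (limma adjusted p = 0.0177), -0.70 (adjusted p = 0.0200) and -0.80 (adjusted p = 0.0358), and 6 of the 43 were then called, these 3 and the 3 targeted genes, all lower, where 6.85% of all genes were called (971). Without the HT29 NC library the differences were -0.48 for RPL12 and RPL10A and -0.42 for RPL3, each called among 6 of the 43 called lower and 16 called higher, where 12.9% of all genes were called (1838). With the HCT116 NC library left out, all 43 were called lower, where 48.6% of all genes were called (6945), so the count rests on which NC library is used. RPL3, RPL10A and RPL12 were lower in every setting tried. They were singled out as lower than NC in all 6 RPL siRNA libraries, so leaving out a library could not change that sign. The shared direction is therefore no separate evidence.

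In HCT116, 29 of the 43 were higher than NC in all 3 RPL siRNA libraries, where 33% of all tested genes were, and 3 were lower in all 3, where 32.4% of all genes were. The remaining 11 changed sign between siRNAs: the 3 targets and RPL7, RPL15, RPL22, RPL23, RPL26, RPL31, RPL32 and RPL35. Among the steadily higher genes, RPL36 had 3345 RPKM under NC and 4311, 4538 and 4838 under RPL9, RPL17 and RPL27 siRNA. RPL27A had 8398 and 10852, 11732 and 11702, and RPLP1, an acidic protein of the stalk, 4797 and 6411, 6882 and 5640. In HT29 the same 3 genes were lower than NC, for example RPL36 at 8038 under NC and 3492, 3425 and 3458, and RPLP1 at 13445 and 6745, 6160 and 5428. At the other end of the HT29 range, RPL4, which forms the constriction of the exit tunnel, was at 37527 under NC and 29066, 29435 and 28617, RPL14 at 12991 and 9648, 8857 and 9360, and RPL15 at 4483 and 2996, 3487 and 3033. RPL4 and RPL14 were higher than NC in all 3 libraries of HCT116.

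The spread among the 3 RPL siRNA libraries of a line was near that of other abundant messages. For the 40 genes that were not targeted, the highest of the 3 libraries of a line divided by the lowest had a median of 1.11 in HCT116 and 1.10 in HT29, and was under 1.2 for 32 and 28 of them. The 225 other genes at or above the lowest mean RPKM of these 40 had medians of 1.13 and 1.12, with 72.4% and 71.6% under 1.2. RPL8 had the lowest ratio in HCT116 (1.01) and RPL36 in HT29 (1.02). RPL35 had the highest in both, 1.63 and 1.69.

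RPL9 siRNA, compared with the mean of RPL17 and RPL27 siRNA in a limma fit on the 6 RPL siRNA libraries, called none of the 40 genes that were not targeted. It called 3 of the 43, where 0.707% of all genes were called (101). RPL9 itself fell by 1.75 on the log2 scale (SE 0.03, limma adjusted p = 4.69e-05), the same in both lines (-1.75 and -1.74). The other two called were RPL27 (1.64) and RPL17 (0.74), for which the comparison holds the libraries in which they were targeted. RPL27 was also low in the RPL17 siRNA libraries compared with, as described below. The next gene was RPL10, which joins the subunit late and lies near its catalytic centre. It was at 13903 RPKM in HCT116 under RPL9 siRNA, against 10728 and 13510 under RPL17 and RPL27 siRNA, and at 17355 against 11653 and 14647 in HT29. Its difference of 0.31 (SE 0.05) missed the threshold at a limma adjusted p of 0.0665.

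RPL27 siRNA was followed by a fall of RPL35 in both lines. RPL35 sits at the rim of the exit tunnel, where factors that meet the new chain bind. In HCT116 it was at 4796 RPKM with NC, 5928 with RPL9 siRNA, 6508 with RPL17 siRNA and 4004 with RPL27 siRNA. In HT29 the same order gave 10701, 5610, 6445 and 3811. Within each line RPL35 under RPL27 siRNA was below all 3 other libraries. Against the mean of the other 2 RPL siRNAs RPL35 fell by 0.65 on the log2 scale (SE 0.04, limma adjusted p = 0.00682), by 0.63 in HCT116 and 0.66 in HT29, which is 0.639 times their level. Against RPL9 siRNA alone, a comparison added after the data were seen, the fall was 0.56 (SE 0.05, adjusted p = 0.0155).

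In that contrast of RPL27 siRNA, 5 of the 43 were called where 1.25% of all genes were (179). Beside RPL27 (-1.69, SE 0.05, limma adjusted p = 0.000786) and RPL35 these were RPL9 and RPL17, which were targeted in the libraries compared with, and RPL32, a protein found in archaea and eukaryotes but not in bacteria, at 0.30 (SE 0.04, adjusted p = 0.0426). The rise of RPL32 is relative to its low level under RPL17 siRNA, since against RPL9 siRNA alone it was 0.11 (SE 0.05, limma adjusted p = 0.307). RPLP1 differed by -0.24 (adjusted p = 0.103) and RPL26, which lies at the tunnel exit and also binds the p53 message, by 0.25 (adjusted p = 0.0692). Leaving out an RPL17 or RPL27 siRNA library of either line ended the call of RPL35 in this contrast (adjusted p from 0.0623 to 0.102), with the difference between -0.66 and -0.63 throughout.

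RPL17 siRNA was followed by a fall of RPL27, which is not its labelled target. Without the siRNA sequence, a match to the RPL27 message was not tested. In cells given RPL17 siRNA, RPL27 was at 4723 RPKM (HCT116) and 4754 (HT29), against 9280 and 10530 under RPL9 siRNA and 7649 and 16205 under NC. The RPL17 siRNA values are below RPL9 siRNA and NC in both lines and above those under RPL27 siRNA itself. Against RPL9 siRNA the difference was -1.06 (SE 0.06, limma adjusted p = 0.00692; -0.97 in HCT116 and -1.15 in HT29), in a comparison added after the data were seen that called 3 of the 43, where 0.329% of all genes were called (47). The other two were RPL17 and RPL9, the targets of the siRNAs compared. Leaving out the RPL17 siRNA library of HCT116 or HT29, which leaves 1 library of that siRNA, gave adjusted p values of 0.0971 and 0.135, and leaving out any of the other 4 gave 0.0182 to 0.0271.

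Against the mean of RPL9 and RPL27 siRNA, RPL17 siRNA called 4 of the 43, where 0.42% of all genes were called (60). RPL17 fell by 1.66 (SE 0.06, limma adjusted p = 0.00104), and RPL9 is higher (0.87) because it was targeted in a library compared with. RPL32 was at 3910 RPKM in HCT116 under RPL17 siRNA, against 5169 and 5677 under RPL9 and RPL27 siRNA and 5098 under NC. In HT29 RPL32 was at 3631 against 4702, 4953 and 9225. It was lowest under RPL17 siRNA in both lines, and it fell by 0.44 (SE 0.04, limma adjusted p = 0.0378). RPL35 was 0.45 higher (SE 0.04, adjusted p = 0.0354). Against RPL9 siRNA alone RPL35 differed by 0.17 (SE 0.05, adjusted p = 0.144), and the comparison group holds the RPL27 siRNA libraries in which it was low. Leaving out 1 library at a time kept the call of RPL32 in 2 of 6 cases (adjusted p from 0.0462 to 0.482).

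More large subunit messages read lower under RPL17 siRNA than under the other 2 RPL siRNAs in both lines, without passing the threshold. RPL31, next to the tunnel exit, was at 3755 RPKM in HCT116 against 4672 and 5351 under RPL9 and RPL27 siRNA, and at 3996 against 6098 and 5495 in HT29, a difference of -0.47 (SE 0.08, limma adjusted p = 0.0706). RPL26 was at 7379 against 8447 and 9479, and at 6576 against 8391 and 8789 (-0.33, adjusted p = 0.0581). RPL10, whose RPL siRNA values are given above, differed by -0.40 (adjusted p = 0.0553) and RPL24, a protein at the subunit interface, by -0.28 (adjusted p = 0.0992). In HCT116 neither was below NC under RPL17 siRNA, with RPL10 at 10728 against 10035 and RPL24 at 8435 against 7958. In HT29 both were below NC, at 11653 against 22478 and 9574 against 16808. In the pairwise comparison of RPL17 with RPL27 siRNA, added after the data were seen, 5 of the 43 were called where 0.938% of all genes were (134): RPL17 (-1.72), RPL27 (1.15), RPL35 (0.73), RPL32 (-0.49) and RPL26 (-0.39, SE 0.05, limma adjusted p = 0.0432). RPL27 against RPL9 siRNA called 3, where 1.38% of all genes were called (197): the 2 targets and RPL35.

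**Figure D3:**
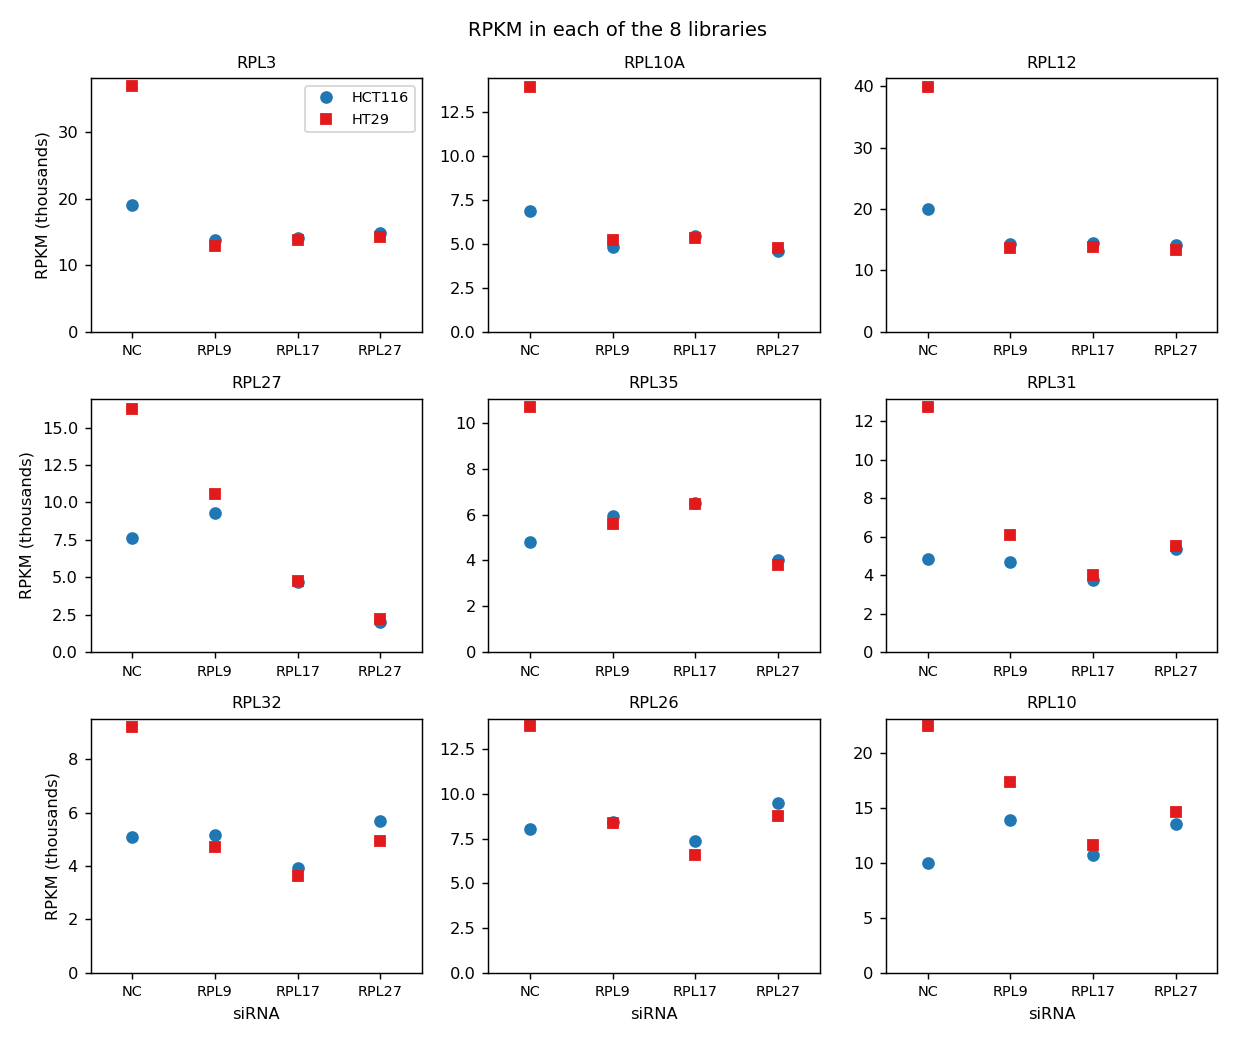
RPKM divided by 1000 (vertical axes from 0) of 9 large subunit genes in each of the 8 libraries, by siRNA (horizontal axis), with circles for HCT116 and squares for HT29. RPL3, RPL10A and RPL12 are below NC under all 3 RPL siRNAs in both lines, RPL27 is low under both RPL17 and RPL27 siRNA, RPL35 is lowest under RPL27 siRNA, and RPL31, RPL32 and RPL26 are lowest under RPL17 siRNA.

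The siRNA differences of the 2 lines were set side by side gene by gene. Across the 40 genes that were not targeted, the HCT116 and HT29 differences had a Pearson r of 0.88 for RPL17 siRNA, 0.86 for RPL27 siRNA and 0.47 for RPL9 siRNA against the other 2, with Spearman rho of 0.72, 0.67 and 0.41. They had the same sign in 29, 25 and 20 of the 40. The lines share no library, but the genes of a library share its depth and composition, and the 3 contrasts share libraries, so these are descriptions across genes. For RPL17 against RPL27 siRNA directly r was 0.93 and 35 of 40 had the same sign. All 7 member counts from the 6 RPL siRNA libraries, that of the line comparison below included, went to 0 in limma without the variance trend, without the filter on low values, or in a fit that included the NC libraries.

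**Figure D4:**
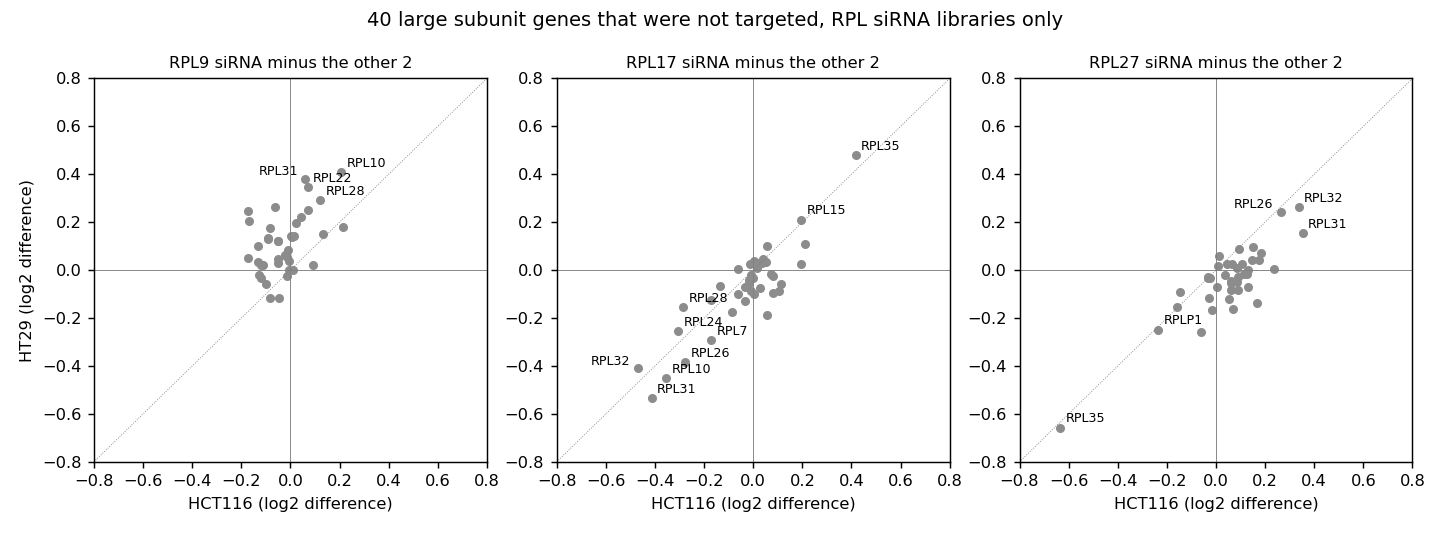
Log2 difference of each RPL siRNA library from the mean of the other 2 RPL siRNA libraries of the line, HT29 (vertical axis) against HCT116 (horizontal axis), for the 40 genes that were not targeted. Points are genes, the dotted line is equality, and genes with a mean difference over 0.2 in size are named. RPL35 lies at 0.42 and 0.48 for RPL17 siRNA and at -0.63 and -0.66 for RPL27 siRNA.

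Grouped by place in the ribosome, few genes were called. Of the 4 genes of the stalk and its base (RPLP0, RPLP1, RPLP2 and RPL12), none was called in any contrast of 1 RPL siRNA with the other 2, and their medians there were between -0.01 and 0.02. Of 9 genes of the exit tunnel and its rim, all 9 had a positive difference under RPL9 siRNA (median 0.08), where 28 of the 43 had. By line, the median of these 9 was 0.01 (HCT116) and 0.18 (HT29). That contrast compares with libraries in which RPL17, RPL26 and RPL31 (RPL17 siRNA) or RPL35 (RPL27 siRNA) were low, all of them among the 9. With RPL17 siRNA, 7 of the 9 had a negative difference (median -0.10), where 24 of the 43 had, and RPL17 is itself 1 of the 9. RPL17 and RPL35 were the only ones called in these contrasts. Of 8 genes near the catalytic centre and at the interface, none was called in these contrasts, and of 6 with known roles outside the ribosome (RPL4, RPL6, RPL13A, RPL22, RPL23 and RPL26) none was either. The median of all tested genes in the 3 contrasts was between -0.00 and 0.01.

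RPL22, RPL15 and RPL6 were also among the highest or lowest of equal sign in both lines, without passing the threshold. RPL22, which represses its paralog RPL22L1, was at 5374, 5179 and 5061 RPKM in HCT116 and 6496, 5320 and 4913 in HT29 under RPL9, RPL17 and RPL27 siRNA. Among the RPL siRNA libraries it was highest under RPL9 siRNA in both lines, by 0.21 (SE 0.07, limma adjusted p = 0.181). RPL15 was highest under RPL17 siRNA (3741 in HCT116 and 3487 in HT29, against 2996 to 3345 in the other RPL siRNA libraries), by 0.20 (SE 0.05, adjusted p = 0.107). Among the RPL siRNA libraries RPL6 was lowest under RPL9 siRNA (12416 and 12824, against 13276 to 13380), with a difference of -0.08 (adjusted p = 0.251). Under NC it was at 10392.5 in HCT116, below all RPL siRNA libraries, and at 19587.6 in HT29, above them.

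HCT116 and HT29 held different amounts of some large subunit messages whatever RPL siRNA they had. Over the 6 RPL siRNA libraries, 12 of the 43 differed between the lines, where 22.9% of all genes did (3265), so the share of 27.9% is near the background. Higher in HCT116 were 5 (background 11.1%): RPL36 by 0.40 (SE 0.05, limma adjusted p = 0.00435), RPL38, known for a part in the translation of selected messages, by 0.27, RPLP0, the stalk's base protein, by 0.17, RPL14 by 0.16 and RPL32 by 0.15. RPL36 was at 4311 to 4838 RPKM in HCT116 and 3425 to 3492 in HT29, without overlap. Lower in HCT116 were 7 (background 11.7%): RPL21 by -0.38 (SE 0.07, adjusted p = 0.0148), RPL13A, also a part of an interferon-responsive translation block, by -0.28 (SE 0.03, adjusted p = 0.00296), RPL37 by -0.28, RPL23 by -0.27, RPL10 by -0.19, RPL27A by -0.18 and RPL4 by -0.16. RPL13A was at 20583 to 22088 in HCT116 and 25403 to 26009 in HT29, and RPL21 at 21831 to 23354 and 27036 to 32953. RPL38 was at 12054 to 13383 and 10396 to 10678, RPLP0 at 23312 to 23582 and 20530 to 21414, RPL37 at 7464 to 8276 and 9276 to 9845, and RPL23, a partner of MDM2, at 7922 to 8955 and 10252 to 10632.

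The replicates of that comparison are different siRNAs, and it leaves 2 residual degrees of freedom. With the NC libraries included none of the 43 was called, and leaving out the RPL17 siRNA library of HCT116 or HT29 lowered the count to 3 and 4. Leaving out an RPL27 siRNA library of either line gave 7.

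**Figure D5:**
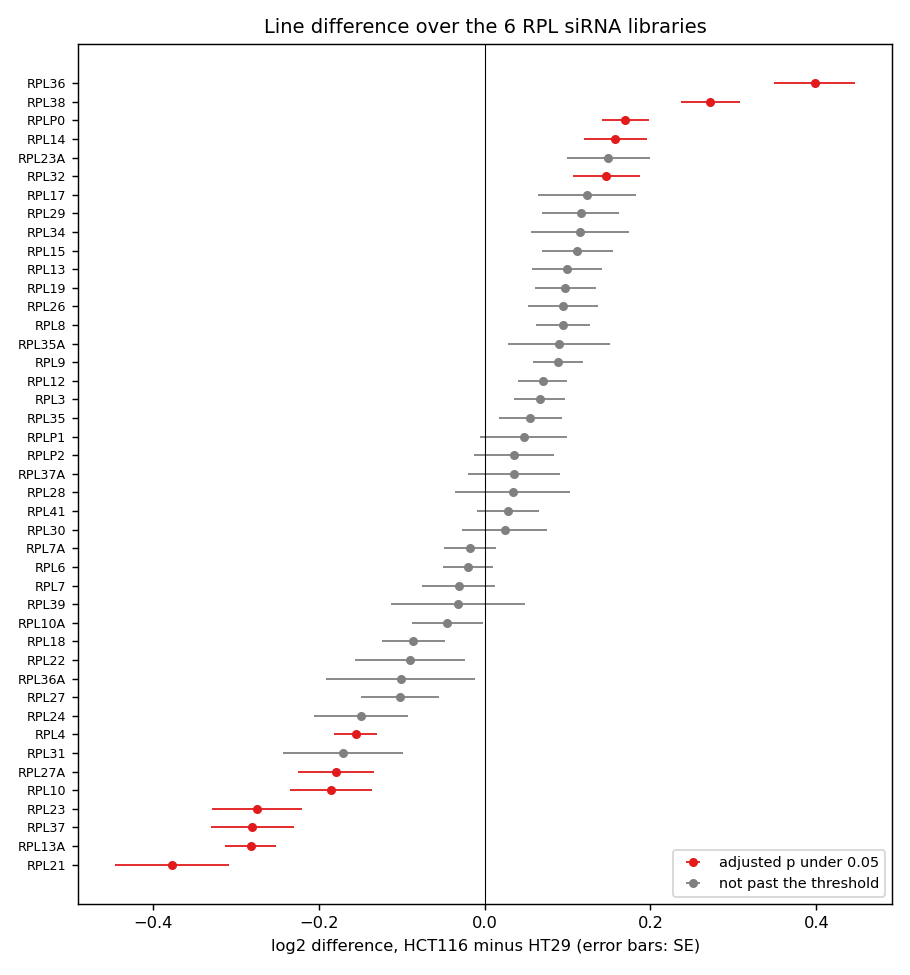
Log2 difference between HCT116 and HT29 over the 6 RPL siRNA libraries for the 43 genes (horizontal axis, HCT116 minus HT29; error bars are 1 SE from limma), ordered by size. The 12 genes with an adjusted p under 0.05 are red, from RPL36 at 0.40 to RPL21 at -0.38.

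The difference between the lines in the response to the RPL siRNAs against NC was tested as an interaction. That fit had no term for the single siRNA, so the different RPL siRNAs of a line stood in as replicates. The difference was called for 36 of the 43, all more positive in HCT116. Of all genes, 22.9% were called and 6.11% were called as more positive in HCT116. The median over the 43 was 1.01, against -0.19 for all tested genes. RPL36 had the highest, 0.45 in HCT116 and -1.22 in HT29. With 1 NC library a line, the line and its NC library cannot be told apart, and with the length trend removed 9 of the 43 were called, where 7.42% of all genes were (1052).

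Genes of the wider translation machinery were tested in the same fits. Of 32 small subunit genes none was called against NC, with medians of 0.23 in HCT116 and -0.995 in HT29 beside 0.19 and -0.92 for the large subunit genes. Their calls among the RPL siRNAs are not reported here. The values that follow compare 1 RPL siRNA with the other 2, not with NC. A list of 18 genes was taken as having TOP messages, mostly translation factors but also others such as HNRNPA1 and NAP1L1. Their start sites were not examined here. Of these 18, EIF4B (-0.38) and EEF1A1 (-0.19), the factor that brings tRNA to the ribosome, were called lower under RPL9 siRNA than under the other 2. In that contrast 0.707% of all genes were called (101). Against NC, EEF1A1 read higher under RPL9 siRNA in both lines (94445 RPKM against 80353 and 107327 against 92870), and EIF4B lower in HCT116 (6833 against 8114) and higher in HT29 (6948 against 5672). EEF2, the factor that moves the ribosome along, fell by 0.53 (SE 0.04, limma adjusted p = 0.0305) under RPL17 siRNA. It was 0.30 higher under RPL27 siRNA, where the comparison holds the RPL17 siRNA libraries, and RPL27 against RPL9 siRNA alone gave 0.05 (SE 0.05, limma adjusted p = 0.648). Of 36 factors that assemble the large subunit, 2 rose under RPL9 siRNA, NOP16 by 0.66 (SE 0.08, limma adjusted p = 0.0362) and EIF6, which keeps the unfinished subunit from joining the small one, by 0.46 (SE 0.06, adjusted p = 0.0457). Their list median there was 0.16 with 31 of 36 above 0, against 0.00 for all genes, and none was called for RPL17 or RPL27 siRNA.

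Among 5 tested paralogs of large subunit genes, RPL22L1 had the lowest difference from NC. In HCT116 it was at 2094 RPKM under NC, 1096 with RPL9 siRNA, 1340 with RPL17 siRNA and 871 with RPL27 siRNA. In HT29 the same order gave 3593, 863, 665 and 532, lower than NC in all 6 RPL siRNA libraries. Its mean difference from NC was -1.68 (SE 0.35, limma adjusted p = 0.0892), and none of the 5 paralogs was called against NC. RPL5 and RPL11 were measured as well: with RPL17 siRNA, RPL5 was at 10978 (HCT116) and 10427 (HT29), below 12677 to 14214 and 13248 to 13311 under the other 2, a difference of -0.32 (SE 0.05, limma adjusted p = 0.0585).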

How the data were processed

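RNA sequencing of 8 libraries (2 lines, 4 siRNAs, 1 library each) was used as deposited, as RPKM per gene computed by the authors. Per the submitters' processing notes, CASAVA 1.8.2, TopHat2 2.0.9 and hg19 were used. The sources used here do not give the rule by which reads were assigned. RPKM keeps no read totals, and depth was not estimated. No column of another sample was present (0). Values were analysed as log2(RPKM + 1). Of 19124 genes, 14281 whose mean reached 1 RPKM were tested with limma 3.58.1 and statmod 1.5.0 in R 4.3.3, two-sided, with a variance trend and Benjamini-Hochberg adjustment over all genes tested (threshold 0.05). All 43 large subunit genes passed the filter.

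Comparisons with NC used 8 libraries and the line as a block (3 residual degrees of freedom). The line difference of the response used the same 8 libraries without a term for the single siRNA. There the 3 RPL siRNAs of a line stood in as replicates. Contrasts among RPL siRNAs used 6 libraries (2 residual degrees of freedom). Libraries pair by line: the deviations of libraries of the same line correlated at 0.41 to 0.71, and those of different lines at -0.71 to -0.41, which mirror them. Transcript lengths came from GENCODE v29 by symbol, for 14180 tested genes. The code was checked on simulated data. The members, lists and tests were chosen with earlier results of these data known, and 3 pairwise contrasts were added after seeing the data. Named genes were the targets, the 3 highest and 3 lowest of equal sign in both lines per siRNA contrast, the 3 highest and lowest per line against NC, the 4 highest and lowest between lines, and called genes. RPL7, RPL24 and the other genes named outside that rule were chosen after their values were seen. Alternatives were other pseudocounts, filters, scalings, a length or length and GC correction, no trend, robust variances, no block, all 8 libraries, and leaving out each library. Some results on single genes outside the 43 are not reported here.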

Additional observations from a re-analysis of the deposited data

Results flagged for a closer look

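The response to the RPL siRNAs against NC differed between the lines in 36 of the 43 genes, by limma's test of the difference itself. All 36 were more positive in HCT116. Of all genes, 22.9% were called, and 6.11% were called as more positive in HCT116. As HCT116 minus HT29 on the log2 scale, the 10 highest were RPL36 (1.66), RPLP1 (1.53), RPLP2 (1.52), RPL34 (1.495), RPL37A (1.34), RPL13 (1.33), RPL38 (1.31), RPL36A (1.26), RPL28 (1.23) and RPL18 (1.23). In each of these 10 the HCT116 response was above 0 and the HT29 response below 0: RPLP2 had 0.18 and -1.33, and RPL34 had 0.31 and -1.19. The test uses 1 NC library in each line, and the HT29 one reads short transcripts high. It takes the different RPL siRNAs of a line as replicates. With the length trend removed, 9 of the 43 were called, where 7.42% of all genes were. After centring on the 43 genes, 6 were called, 5 of them more negative in HCT116, where 56.8% of all genes were called.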

How the results depend on the processing

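Counts of called large subunit genes are given in the order RPL siRNAs together, RPL9, RPL17 and RPL27 siRNA against NC. They were 0 in limma as reported, 1, 1, 1 and 1 with quantile normalization, 6, 3, 2 and 3 with a length correction, 6, 4, 2 and 3 with length and GC, and 0 to 43 when 1 library was left out (43 without the HCT116 NC library, where 48.6%, 46.2%, 44.2% and 44.6% of all genes were called, and 22, 22, 16 and 18 without the HT29 one, where 12.9%, 15.2%, 6.85% and 10% were). In the same order, 24, 1, 2 and 0 of all genes were called as reported, and 83, 10, 10 and 1 with quantile normalization. With a length correction 6.85%, 3.72%, 0.233% and 1.93% of all genes were called, and 9.34%, 6.76%, 0.867% and 3.6% with length and GC. With 1 library left out, the differences from NC ranged from -1.22 to 0.45 for RPL36, -0.57 to 0.44 for RPL27A, -1.14 to 0.39 for RPLP1, -0.37 to 0.21 for RPL4 and -0.48 to 0.34 for RPL14, in each case highest, and above 0, without the HT29 NC library.

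The line difference of the response went from 36 to 11 with quantile normalization, 6 with centring on the 43 genes (1 more positive and 5 more negative in HCT116, median -0.21, where 56.8% of all genes were called), and 9 with either correction, and it was 31 to 37 when 1 library was left out. For that line difference, 3066 of all genes were called with quantile normalization, 7.42% with the length correction and 6.65% with length and GC. Each RPL siRNA against the other 2, the 3 pairwise contrasts and the line comparison gave 0 with no filter, with no trend, or in a fit on all 8 libraries. In that last fit RPL36 (-0.0176), RPL38 (-0.0558), RPLP0 (-0.0589) and RPL14 (-0.0479) changed direction between lines. RPL17 siRNA against the other 2 gave 7 with a mean of at least 5 RPKM and with length and GC, where 316 and 146 of all genes were called. RPL17 against RPL9 siRNA gave 5 with that filter or a pseudocount of 5, where 257 and 124 of all genes were called. It gave 6 with quantile normalization or length and GC, where 198 and 184 of all genes were. With 1 library left out, RPL9, RPL17 and RPL27 siRNA against the other 2 gave 2 to 4, 1 to 8 and 1 to 6, the line comparison 3 to 15, and RPL17 against RPL9, RPL27 against RPL9 and RPL17 against RPL27 siRNA 2 to 5, 2 to 4 and 1 to 8. The cause of these shifts was not tested.

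Without the replicate block for the line, RPL17 and RPL27 siRNA against the other 2 gave 0 and 0, RPL17 against RPL9 siRNA 1 and RPL17 against RPL27 siRNA 0. RPL9 siRNA against the other 2 gave 2, RPL27 against RPL9 siRNA 2, and the comparisons with NC 0. For RPL17 against RPL9 siRNA, RPL9 siRNA against the other 2 and RPL27 against RPL9 siRNA, 1, 2 and 2 of all genes were called. Of 1533 single-gene values under alternatives, 1219 stayed on their side of the threshold, 109 newly passed it, 196 no longer did and 9 changed direction with a call. A further 12, called in neither setting and counted among the 1219, also changed sign. Having 2 lines as the only replicates, and no read totals, limits all of these.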
